A study of Mus musculus with 12 samples.

Results

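DNA repair and replication stress genes were followed in tumors of the mouse hindbrain choroid plexus (CP), the epithelium that lines part of the brain ventricles and secretes cerebrospinal fluid. The members were chosen by name as 40 genes of the repair pathways, of which 39 had a probe under that symbol on the arrays. A gene was tested where a probe had a detection p-value under 0.05, the array's own measure of signal above its negative controls, on at least 3 of the 12 arrays. This held for 32 members among the 12379 genes tested. The tumors came from Math1-cre;Rosa26-NICD1 mice. Their Cre recombinase is expressed from Math1, and it switches on the intracellular domain of the Notch1 receptor at the Rosa26 locus. Tumors at postnatal day 0 (P0) were set against wild-type CP at P0, and tumors at P21 against wild-type CP at P21, with all animals on the C57BL/6 background and 3 arrays in each of the 4 groups. Each array held tissue pooled from several animals of 1 genotype, so the replicates measure the spread between pools. The effect of Cre without the Notch1 domain, or of the transgene without Cre, was not analysed here.

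Cells repair their DNA by several routes that act on different lesions. Double-strand breaks are mended by homologous recombination, which copies the sister chromatid, or by non-homologous end joining, which seals the ends directly. The Fanconi anemia proteins unhook crosslinks between the strands, and the mismatch, base excision and nucleotide excision pathways replace wrong or damaged bases. During replication, stalled forks expose single-stranded DNA that is coated by replication protein A, and the kinases Atr and Chek1 then slow the cell cycle. Many of these genes are known to be transcribed mainly in S and G2 phase, so their RNA is often higher in dividing tissue.

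The 12 arrays detected between 19043 and 23632 probes, and raw median signals lay between 134 and 179.9. Each age had a BeadChip of its own, so chip and age cannot be told apart. Tumors occupied positions A to C and wild-type samples positions D to F on both, so position and genotype cannot be told apart either. All 8 tested genes of the CP epithelium list, Ttr and Otx2 among them, were detected on all 12 arrays. P21 tumor replicate 1 stood apart in its neuronal signal, with a mean log2 signal of 10.87 over 6 neuronal genes, against 8.22 and 7.40 in the other P21 tumors. It also had the lowest mean over the members of the P21 tumors, 8.10, against 8.30 and 8.29. Calls named below that were lost without that sample are given with both values. Other arrays were less even by other measures. An alternative fit with estimated array weights gave the lowest to P0 tumor replicate 2 (0.219) and P0 wild-type replicate 1 (0.221). P21 tumor replicate 1 had 0.387. The fewest detected probes, 19043, were those of P0 wild-type replicate 1.

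At P0, 4 of 5 fork protection and 4 of 5 Fanconi anemia members tested rose in the tumors, and no test compared the roles. The fit, limma with Benjamini-Hochberg adjustment over all genes and a threshold of 0.05, called 13 of 32 members higher, or 40.6%, where 5.00% of all genes were called higher. Only 1 member, Ogg1, was lower, where 6.29% of all genes were lower. The 13 were Clspn, Timeless, Rpa1, Rpa2, Fanca, Fancc, Fancd2, Fanci, Rad54l, Mre11a, Chek1, Ung and Parp1. The median difference of the members, tumor minus wild type, was 0.41 on the log2 scale, against -0.06 over all genes tested. The 3 tumor arrays lay wholly above the 3 wild-type arrays for 15 members, where this held for 10.4% of all genes. Some members passed the detection filter mainly through the P0 tumors. Fanca was detected only on the 3 P0 tumor arrays, and Chek1 and Fanci on these and 1 P0 wild-type array, so their presence among the tested genes was tied to a high signal there. Of the Fanconi members, Fancc and Fancl alone were detected on all 12 arrays, and of these Fancc rose. With probes detected on all 12 arrays only, 22 members were left, of which 7 rose at P0, against 422 of 9301 genes.

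**Figure D1:**
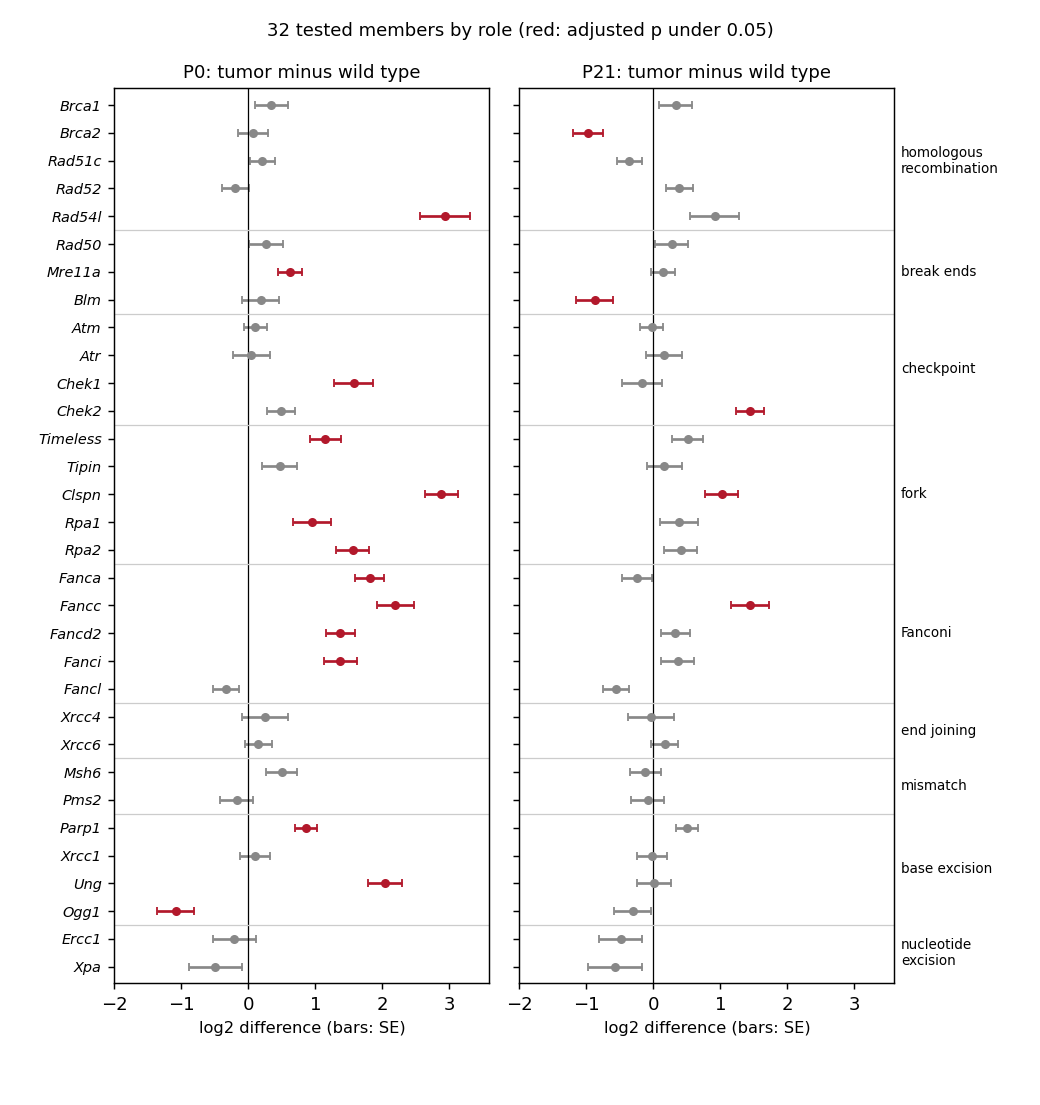
Difference of each tested member, tumor minus wild type, on the log2 scale at P0 and at P21, with P0 in the left panel, P21 in the right one, bars for the SE and members grouped by role. Red points passed the threshold. The fork protection and Fanconi anemia members lie mostly right of 0 at P0, and each of the 13 members that rose at P0 lies farther left in the P21 panel.

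Levels are given below as normalized signals per array after background correction and quantile normalization, and they are not comparable between genes because each comes from its own probe. Claspin (Clspn) is the adaptor through which Atr activates Chek1 at stalled forks. Clspn gave 1025, 802 and 1018 signal units in the P0 tumors, against 154, 124 and 109 in wild-type CP at P0. All 3 tumor arrays lay above all 3 wild-type arrays. The difference was 2.88 ± 0.25 on the log2 scale (SE, 7.38-fold, adjusted p = 2.14e-05), and a second Clspn probe gave 2.74. Timeless, which forms the fork protection complex with Tipin, gave 563, 785 and 664 units in P0 tumors and 281, 343 and 278 units in P0 wild type. All tumor arrays were higher, by 1.15 ± 0.23 on the log2 scale (adjusted p = 0.00771). Its partner Tipin gave 5239, 2693 and 5401 units in P0 tumors, against 3607, 2716 and 2955 units in P0 wild type. Tumor replicate 2 lay below all the wild-type arrays, and the difference of 0.47 ± 0.26 missed the threshold (adjusted p = 0.291). Without that array it was 0.79 (adjusted p = 0.0177).

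Replication protein A binds single-stranded DNA, and Rpa1 and Rpa2 encode its large and middle subunits. Rpa2 gave 525, 444 and 558 units in P0 tumors, against 130, 196 and 200 units in P0 wild type. The groups did not overlap, and the difference was 1.56 ± 0.25 on the log2 scale (adjusted p = 0.00184). Of the other Rpa2 probes, 1 differed by 1.04 (adjusted p = 0.0597 over probes) and 1 by 0.07 (adjusted p = 0.909). Rpa1 gave 6281, 13310 and 7380 units in P0 tumors and 3116, 5401 and 5087 units in P0 wild type. Here the difference of 0.95 ± 0.28 lay at the threshold (adjusted p = 0.0489) and was lost in 6 of 16 alternative settings. Without tumor replicate 2 it was 0.63 (adjusted p = 0.106), and without wild-type replicate 1 it was 0.70 (adjusted p = 0.154).

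Of the 5 Fanconi anemia genes tested, 4 rose at P0. Fancc and Fanca belong to the core complex that ubiquitinates the pair formed by Fancd2 and Fanci at a crosslink. Fancc gave 1610, 964 and 1736 units in P0 tumors, against 231, 351 and 347 units in P0 wild type. It was 2.19 ± 0.28 higher on the log2 scale (4.58-fold, adjusted p = 0.000382), and its other probes differed by 1.43 and 1.55. Fanca gave 108, 123 and 139 units in P0 tumors and 32.6, 46.9 and 27.7 units in P0 wild type. It was not well above background on any wild-type array, so the rise is stated as at least 2.19-fold (adjusted p = 0.000281). For this bound each wild-type array counted as its lowest signal among detected probes, or as the Fanca signal where that was higher. Both genes of the pair rose, with 1.37 ± 0.22 for Fancd2 (adjusted p = 0.00168) and 1.38 ± 0.25 for Fanci (adjusted p = 0.00422). A second Fancd2 probe gave 0.87 (adjusted p = 0.0414 over probes). Fanci was detected on 1 of 3 P0 wild-type arrays, so the size of its rise is uncertain. Fancd2 gave 287, 342 and 303 units in P0 tumors, against 88.5, 135 and 143 units in P0 wild type. Fanci gave 79.9, 88.9 and 98.4 units in P0 tumors, against 27.7, 26.9 and 53.6 units in P0 wild type. Neither gene's groups overlapped. Fancl, the ubiquitin ligase of the core complex, gave 435, 407 and 457 units in P0 tumors, all below 685, 494 and 483 units in P0 wild type. Its difference of -0.34 ± 0.19 did not pass (adjusted p = 0.311). The other Fancl probes went in both directions, at 0.31, -0.44, -0.49 and 0.15, and none passed.

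**Figure D2:**
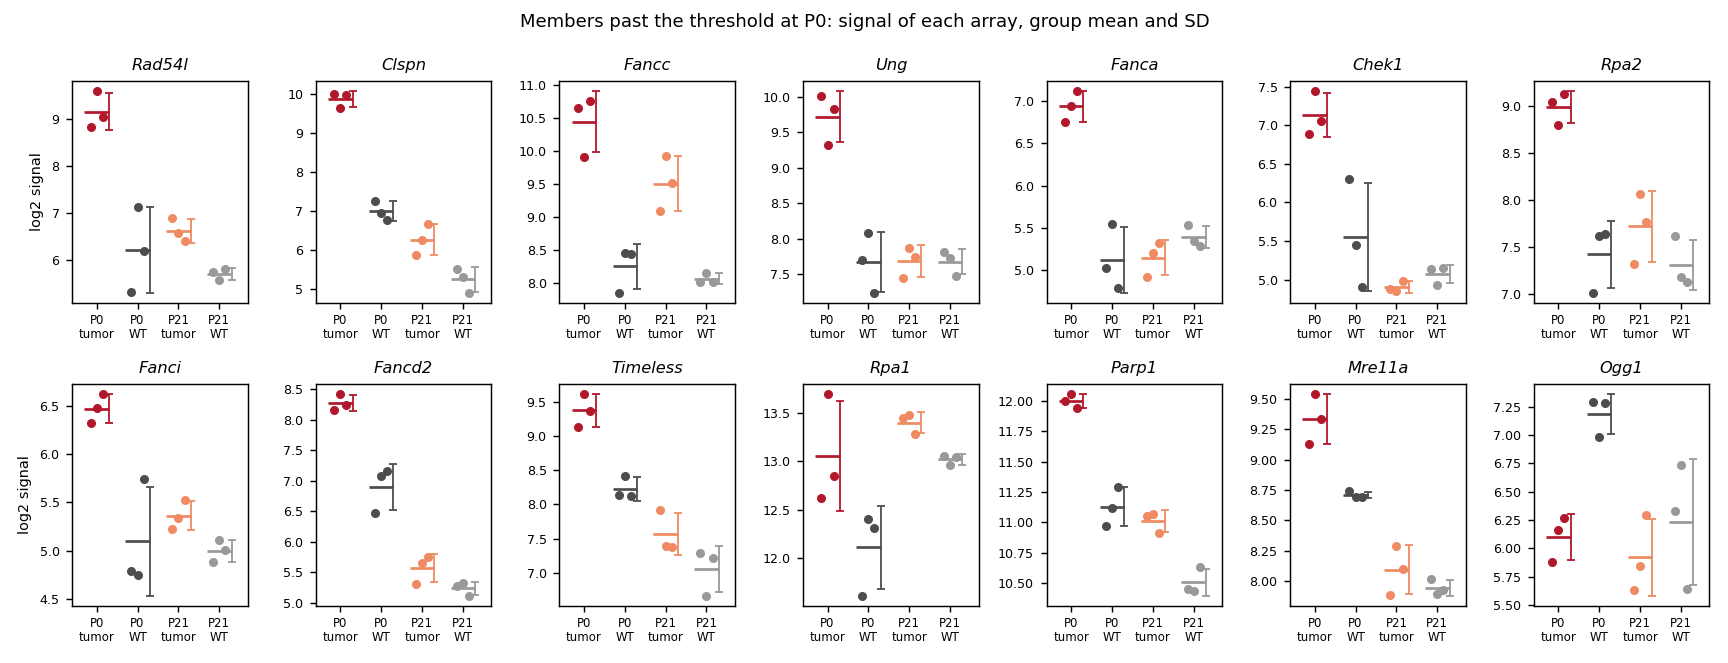
Log2 normalized signal of each array for the 14 members past the threshold at P0, with tumor beside wild type at P0 and at P21, group means as lines and SD as bars (n = 3 arrays a group). The P0 tumor points lie above the P0 wild-type points in 13 panels and below them for Ogg1, and no panel shows overlap between these groups.

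Of the 5 homologous recombination members tested, 1, Rad54l, rose at P0. It encodes a motor protein that acts in strand exchange with the sister chromatid. Rad54l gave 452, 769 and 525 units in P0 tumors, against 39.7, 140 and 73.5 units in P0 wild type. The difference of 2.94 ± 0.37 (7.65-fold, adjusted p = 0.000371) ranked 35 among the rises of 12379 genes, and Clspn ranked 39. Rad54l was detected on 2 of 3 P0 wild-type arrays, so the size of its rise is uncertain. Over the alternative settings it lay between 1.77 and 3.39. Brca2, a mediator of homologous recombination, differed by 0.07 ± 0.22 at P0 (95% confidence interval -0.41 to 0.55). Rad51c, which also acts in recombination, differed by 0.21 (adjusted p = 0.536) and Rad52, which anneals single strands, by -0.19 (adjusted p = 0.605). A second Rad51c probe gave 0.65 and did not pass (adjusted p = 0.249 over probes). Brca1 was detected on 1 of 3 P0 tumor arrays and on no P0 wild-type array, so its level there was not measured. Mre11a, the nuclease that trims break ends, gave 561, 745 and 644 units in P0 tumors and 427, 415 and 414 units in P0 wild type. Its groups did not overlap and the difference was 0.63 ± 0.18 (adjusted p = 0.0395), but with the replicate number as a block the adjusted p was 0.0749, and the call was lost in 8 of 16 settings. A second Mre11a probe gave 0.38 and did not pass (adjusted p = 0.405 over probes). Rad50, the partner of Mre11a, differed by 0.26 (adjusted p = 0.564), and Blm, a helicase that dissolves recombination intermediates, by 0.18 (adjusted p = 0.738).

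Among the 4 checkpoint kinases, Chek1 rose and Atm, Atr and Chek2 did not pass at P0. Chek1 gave 118, 174 and 133 units in P0 tumors, against 78.9, 43.7 and 30.1 units in P0 wild type. The groups did not overlap, the difference was 1.58 ± 0.29 (2.98-fold, adjusted p = 0.00505), and a second probe gave 1.95. Atm, the kinase that answers double-strand breaks, gave 1824, 1690 and 1487 units in P0 tumors and 1786, 1484 and 1392 units in P0 wild type. The ranges overlapped, and the difference of 0.10 had a 95% confidence interval of -0.27 to 0.47. Atr differed by 0.05 (interval -0.54 to 0.64) and was detected on 1 tumor and 2 wild-type arrays at P0.

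Base excision repair moved in both directions. Ung, which removes uracil from DNA, gave 1031, 638 and 914 units in P0 tumors, against 209, 272 and 152 units in P0 wild type. It was 2.04 ± 0.25 higher (4.12-fold, adjusted p = 0.000324). Parp1, a sensor of strand breaks that builds poly(ADP-ribose) chains, gave 4100, 4255 and 3926 units in P0 tumors and 2010, 2230 and 2512 units in P0 wild type. Its 3 tumor arrays lay close together and above all wild-type arrays, and the difference was 0.87 ± 0.16 (adjusted p = 0.00538). Ogg1, which excises oxidized guanine, gave 58.7, 71.4 and 77.1 units in P0 tumors, against 156, 126 and 156 units in P0 wild type. It was 1.08 lower on the log2 scale (SE 0.28, adjusted p = 0.025). With the replicate block the adjusted p of Ogg1 was 0.0516, and it lay above the threshold without tumor replicates 1 or 3 or wild-type replicates 1 or 3. Xrcc1, the scaffold of single-strand break repair, differed by 0.10 (adjusted p = 0.825).

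No member of the end joining, mismatch or nucleotide excision groups passed at P0. The end joining members tested were Xrcc4, the partner of the ligase, at 0.25 (adjusted p = 0.703), and Xrcc6, which encodes the Ku70 end-binding protein, at 0.15 (adjusted p = 0.699). The other Xrcc6 probes gave 0.03 and 1.41, and neither passed (adjusted p = 0.934 and 0.246 over probes). Msh6, which recognises mismatches, gave 4925, 8672 and 4963 units in P0 tumors and 3821, 4499 and 4367 units in P0 wild type. The groups did not overlap, but the difference of 0.50 ± 0.23 missed the threshold (adjusted p = 0.2). Pms2, which nicks the strand after a mismatch is found, differed by -0.18 (adjusted p = 0.718). Both excision members lay below 0, Ercc1, part of the nuclease that cuts 5′ of a lesion, at -0.21 (adjusted p = 0.744) and Xpa, which verifies the lesion, at -0.50 (adjusted p = 0.481).

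The 8 members not tested were Bard1, Xrcc3 and Exo1, which were detected on at most 1 array, Nbn, Fancb, Fancg and Xrcc5, which were detected on 0 arrays, and Xrcc2, which had no probe of that name. A probe without detection gives no level and does not show that the gene was off.

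The 250 bases before the start of the genes that led the P0 rise are shown to let a reader see which cell cycle promoter motifs occur there. Promoters were taken from RefSeq, build GRCm38.p6, and 34 of the 40 members had one. An E2F-type motif, known as the binding site of E2F factors at genes of S phase, was searched as TTTCCCGC, TTTCGCGC, TTTGCCGC or TTTGGCGC on both strands. It occurred in 5 of the 34 members and in none of the 12 risers with a promoter, where 1.86% of 32851 promoters and 3.63% of 9962 tested genes held it. The CHR motif, TTTGAA or TTCGAA, known from genes of G2 phase and mitosis, occurred in 2 of 34 members and in none of the 12, where 14.8% of tested genes held it. The CCAAT box, the letters bound by the factor NF-Y, occurred in 19 of 34 members, in 7 of the 12 and in 8 of 16 members not called at P0, against 40.6% of tested genes. No matches of different motifs overlapped. The sequences run 5′ to 3′ along the gene's strand, with CCAAT or its reverse complement in capitals, and were picked after the values were seen. Rad54l lies at chr4:116123691-116123940 on the minus strand, Clspn at chr4:126556730-126556979 on the plus strand and Fancc at chr13:63431746-63431995 on the minus strand.
Rad54l: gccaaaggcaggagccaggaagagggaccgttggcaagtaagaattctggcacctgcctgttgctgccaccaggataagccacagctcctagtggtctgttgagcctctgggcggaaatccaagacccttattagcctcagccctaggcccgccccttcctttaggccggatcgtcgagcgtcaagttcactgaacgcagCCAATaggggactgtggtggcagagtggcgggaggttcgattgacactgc
Clspn: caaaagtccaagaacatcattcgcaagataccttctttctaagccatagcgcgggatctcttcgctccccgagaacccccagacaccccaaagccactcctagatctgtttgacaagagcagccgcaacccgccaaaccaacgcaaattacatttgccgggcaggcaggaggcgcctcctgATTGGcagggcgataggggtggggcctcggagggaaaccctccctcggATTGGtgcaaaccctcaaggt
Fancc: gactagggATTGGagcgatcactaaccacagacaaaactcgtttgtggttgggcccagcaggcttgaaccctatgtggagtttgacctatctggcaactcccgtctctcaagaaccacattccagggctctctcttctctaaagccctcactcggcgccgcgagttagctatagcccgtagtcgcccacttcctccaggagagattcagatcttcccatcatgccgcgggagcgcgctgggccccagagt
The CCAAT box lay 46 to 50 bases before the start in Rad54l, at 17 to 21 and at 65 to 69 bases in Clspn, and at 238 to 242 bases in Fancc. A match is a description of the letters only.

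At P21 fewer members passed than at P0. Chek2, Clspn and Fancc were higher in the tumors, 3 of 32 members or 9.38%, where 10.5% of all genes were higher. Brca2 and Blm were lower, 2 members or 6.25%, where 7.43% of all genes were lower. Both shares of members were near those of all genes. The median difference of the members was 0.16 on the log2 scale, against -0.05 over all genes tested. The tumor arrays lay wholly above the wild-type arrays for 9 members, where this held for 21.1% of all genes, and wholly below for 5, where this held for 23.9%. The members Clspn and Fancc, 2 of 32, were higher at both ages, where 2.50% of all genes were. No member was lower at both ages, where 2.87% of all genes were.

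Chek2 is the kinase that Atm activates at double-strand breaks. Chek2 gave 365, 446 and 457 units in P21 tumors, against 141, 166 and 160 units in wild-type CP at P21. Every tumor array lay above every wild-type array. The difference of 1.44 ± 0.21 (2.71-fold, adjusted p = 0.000384) was called under all 16 alternative settings, with an adjusted p of at most 0.00329, and a second probe gave 0.72 (adjusted p = 0.0589 over probes). At P0 Chek2 gave 207, 246 and 220 units in tumors and 120, 185 and 183 units in wild type, without overlap but short of the threshold (0.49 ± 0.21, adjusted p = 0.161). Fancc gave 545, 967 and 727 units in P21 tumors, against 258, 285 and 259 units in P21 wild type. All tumor arrays were higher, by 1.44 ± 0.28 (2.72-fold, adjusted p = 0.00308). Of the other Fancc probes, 1 passed at 1.25 (adjusted p = 0.0125 over probes) and 1 did not at 0.58 (adjusted p = 0.151 over probes). Clspn gave 58.3, 76.6 and 101 units in P21 tumors and 45.7, 39.2 and 29.8 units in P21 wild type. It was not well above background on any P21 wild-type array, so its rise is stated as at least 1.42-fold (adjusted p = 0.0115). The Clspn call was lost without P21 tumor replicate 3 (adjusted p = 0.0541), without P21 wild-type replicate 3 (0.0584) and in 2 other settings of 15. A second Clspn probe gave 0.65 at P21 and did not pass (adjusted p = 0.109 over probes).

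Brca2 gave 103, 154 and 134 units in P21 tumors, against 273, 261 and 226 units in P21 wild type. The groups did not overlap, Brca2 was 0.98 lower on the log2 scale (SE 0.22, adjusted p = 0.00831), and a second probe was 1.40 lower (adjusted p = 0.00772 over probes). Blm gave 374, 405 and 489 units in P21 tumors and 925, 753 and 659 units in P21 wild type. It was 0.88 lower (SE 0.28), just within the threshold at an adjusted p of 0.0479, and 12 of 16 alternative settings, each of the leave-out settings at P21 among them, put it above. Without P21 tumor replicate 1 its difference was -0.79 (adjusted p = 0.126). Brca2 was called under all 16 of its own. Chek2 and Brca2 were the members with an E2F-type motif that changed at P21, in opposite directions, and their 250 bases are shown. Both were picked for that motif after the values were seen, so no contrast with the sequences shown for P0 can be drawn. Xrcc6 held the motif too and was not called at either age. Chek2 lies at chr5:110839733-110839982 and Brca2 at chr5:150522371-150522620 of GRCm38.p6, both on the plus strand, with the E2F-type motif in either orientation in capitals.
Chek2: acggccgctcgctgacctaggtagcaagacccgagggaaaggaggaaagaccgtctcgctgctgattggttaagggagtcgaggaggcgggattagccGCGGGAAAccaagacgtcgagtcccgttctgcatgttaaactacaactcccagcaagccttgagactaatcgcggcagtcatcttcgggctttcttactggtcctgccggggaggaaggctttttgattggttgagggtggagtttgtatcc
Brca2: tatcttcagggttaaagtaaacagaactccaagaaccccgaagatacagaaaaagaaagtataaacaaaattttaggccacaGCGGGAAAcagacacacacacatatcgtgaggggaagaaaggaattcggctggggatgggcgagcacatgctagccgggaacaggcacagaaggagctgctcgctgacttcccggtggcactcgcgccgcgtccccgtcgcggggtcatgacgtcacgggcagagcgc
The motif lay 145 to 152 bases before the start in Chek2 and 161 to 168 bases before it in Brca2. Chek2 also held 2 CCAAT boxes, left in lower case here, at 22 to 26 and at 182 to 186 bases before the start.

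**Figure D3:**
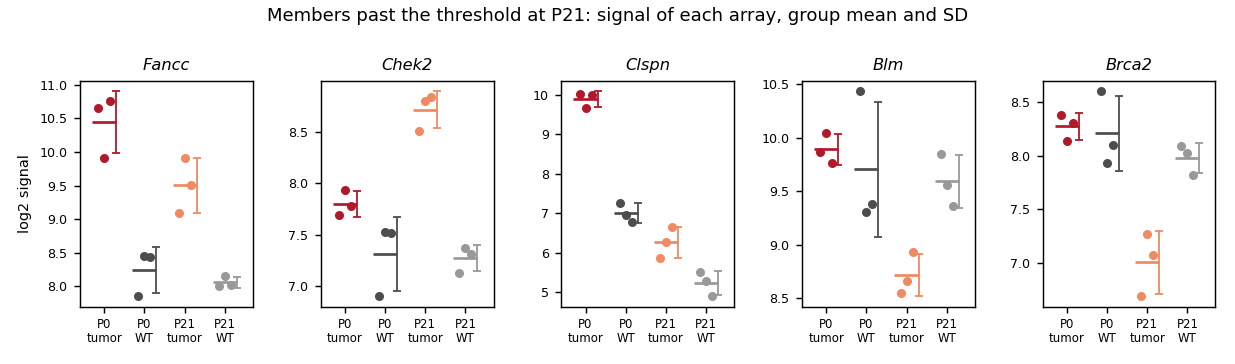
Log2 normalized signal of each array for the 5 members past the threshold at P21, in the same 4 groups, with group means as lines and SD as bars (n = 3 arrays a group). The P21 tumor points lie above the P21 wild-type points for Fancc, Chek2 and Clspn and below them for Brca2 and Blm.

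Other members came close to the threshold at P21. Parp1 gave 2121, 2154 and 1923 units in P21 tumors, against 1402, 1384 and 1585 units in P21 wild type. Its groups did not overlap and the difference of 0.50 ± 0.16 missed the threshold (adjusted p = 0.0517), while 8 of 16 alternative settings put it past. Rad54l gave 119, 95.4 and 84.2 units in P21 tumors and 53.3, 47.5 and 56.4 units in P21 wild type, also without overlap. Its difference was 0.92 ± 0.37 (adjusted p = 0.117), and 0.0282 with the replicate block. Fancl gave 318, 430 and 411 units in P21 tumors, below 566, 539 and 591 units in P21 wild type (-0.56 ± 0.19, adjusted p = 0.0672), and 1 further Fancl probe passed (-0.77, adjusted p = 0.0322 over probes). The remaining Fancl probes gave -0.23, -0.67 and -0.02 and did not pass. The remaining members not called at P21 had differences within -0.57 to 0.51 on the log2 scale, among them Ung at 0.01 (adjusted p = 0.984) and Atm at -0.02 (interval -0.39 to 0.35). The other Atm probes gave -0.73 (adjusted p = 0.0714 over probes) and -0.59 (adjusted p = 0.116 over probes).

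The difference of the effects, tumor minus wild type at P21 minus the same at P0, asked whether the tumor effect changed with age. It was above 0 for 7 of 32 members, where it was above 0 for 6321 of 12379 genes. It was below 0 for all 13 members that rose at P0, a direction that their choice by a high P0 effect favours. It passed for 4 members, Fanca, Ung, Clspn and Chek1, all with a lower effect at P21, or 12.5% of members, where 1.27% of all genes passed in that direction. Fanca and Chek1 passed the detection filter through P0 arrays alone, mostly P0 tumors, which favours a lower effect at P21. With probes detected on all 12 arrays, 1 member passed with a lower effect at P21, against 82 of 9301 genes. No member passed in the other direction, where 3.13% of all genes did, and the nearest was Chek2 at 0.95 (adjusted p = 0.0954). Ung differed by 0.01 between tumor and wild type at P21 and by 2.04 at P0, a change of -2.03 ± 0.36 (adjusted p = 0.00733). Clspn gave a fitted change of -1.86 ± 0.35 (adjusted p = 0.0101). Its P21 effect is known only as a lower bound, since no P21 wild-type array was above background, so this is not a measured size and the change could be smaller. For Fanca the fitted change was -2.06 ± 0.31 (adjusted p = 0.00295), and for Chek1 -1.74 ± 0.42 (adjusted p = 0.034). Neither had a detected array at P21, and Fanca had none in P0 wild type, so these values are not measured sizes either. The Chek1 call was lost with the replicate block (adjusted p = 0.0503) and in 10 of the 12 leave-one-out fits, all but those without P0 tumor replicate 1 or P0 wild-type replicate 1. Without P21 tumor replicate 1 the Chek1 change was -1.73 (adjusted p = 0.0551) and the count was 3 members, and without P0 tumor replicates 2 or 3, where Fanca no longer passed the detection filter, it was 2. Rad54l changed by -2.02 ± 0.52 (adjusted p = 0.0505), and with the replicate block its adjusted p was 0.0153. Fancc changed by -0.75 ± 0.39, which did not pass (adjusted p = 0.375).

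Further genes of the same pathways, 88 named beyond the members and 67 tested, were set beside the members. At P0, 9 rose and 2 fell, where 5.00% of all genes rose and 6.29% fell. The median difference of the 67 was 0.08 on the log2 scale. Recombination held 5 of the 9, among them Rad51ap1, a recombination factor, at 2.07 ± 0.23 (adjusted p = 0.00017) and Brip1, the helicase that binds Brca1, at 1.52 ± 0.19 (adjusted p = 0.000308). Recql4, a helicase, was at least 2.66-fold higher (adjusted p = 0.000522), and Rad54b, related to Rad54l, was 1.21 ± 0.20 higher (adjusted p = 0.00259). Topbp1, the activator of Atr, was at least 2.15-fold higher (adjusted p = 0.0162), and its call was lost without P0 tumor replicates 1 or 3 or wild-type replicate 3. Lig1 and Fen1, which join and process Okazaki fragments as well as repair patches, rose by 1.51 ± 0.26 (adjusted p = 0.0034) and 1.20 ± 0.21 (adjusted p = 0.00345). Rad18, which calls translesion polymerases to a blocked fork, was 1.00 ± 0.27 higher (adjusted p = 0.0353). Lig4, the end joining ligase, fell by 1.04 (adjusted p = 0.00724), and Neil1, a glycosylase for oxidized bases, fell by 0.93 (adjusted p = 0.0387). The Neil1 call was lost in 10 of 15 settings and that of Rad18 in 7 of 15. Rad18 was detected on 1 of 3 P0 wild-type arrays and Lig4 on 1 of 3 P0 tumor arrays, so the sizes of these differences are uncertain.

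At P21 none of these 67 genes rose and 3 fell, where 10.5% of all genes rose and 7.43% fell. The median difference of the 67 was -0.13. Ercc2, a helicase of nucleotide excision repair and transcription, was 1.22 lower on the log2 scale (SE 0.25, adjusted p = 0.00511). Brcc3, a deubiquitinase that acts with Brca1, fell by 1.01 (adjusted p = 0.0257), and the translesion polymerase gene Polk fell by 0.93 (adjusted p = 0.0191). The Brcc3 call was lost in 6 of 16 settings, without P21 tumor replicate 1 among them (adjusted p = 0.0839), and that of Polk in 4 of 16. The difference of the effects passed with a lower effect at P21 in 4 of the 67, Rad51ap1, Brip1, Rad54b and Fen1, where 1.27% of all genes did. Brip1 was detected on P0 arrays alone, which favours a lower effect at P21, and Rad51ap1 on no P21 wild-type array. The changes of Brip1 and Rad51ap1 are thus not measured sizes. Of 12 p53 target genes tested, 0 passed at P0, while Gadd45a (0.97 ± 0.29, adjusted p = 0.0365), a stress-induced growth arrest gene, and Trp53inp1 (0.73 ± 0.17, adjusted p = 0.00864) rose at P21. The median difference of the 12 at P21 was -0.32, 4 of the 12 lay above 0, and 10.5% of all genes were called higher. The Gadd45a call was lost in each of the 6 leave-one-out fits at P21, with a difference of 1.00 (adjusted p = 0.064) without P21 tumor replicate 1.

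Cell cycle genes rose at P0, as did 13 of the 32 members. All 15 tested rose at P0, by a median of 2.29 on the log2 scale, with Mcm5 of the replicative helicase at 3.30 ± 0.23 (adjusted p = 4.27e-06) and Tk1, thymidine kinase, at 3.20 ± 0.40 (adjusted p = 0.000327). The call of Cdk1, a gene named after its values were seen (1.09, adjusted p = 0.0463), was lost with the replicate block (adjusted p = 0.0653) and in 9 of 16 settings in all. The list's mean log2 signal per array was 10.5 to 10.8 in P0 tumors, against 8.30 to 8.72 in P0 wild type. The P21 tumors gave 7.27 to 7.85 and the P21 wild-type samples 7.20 to 7.23, and 2 of the 15 rose. The mean over the members followed the same order, 9.04 to 9.14 in P0 tumors and 8.37 to 8.44 in P0 wild type, then 8.10 to 8.30 in P21 tumors and 8.04 to 8.19 in P21 wild type. The part of dividing cells in the members' differences was not tested. In bulk tissue, fewer cells of a type and less RNA per cell cannot be told apart.

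**Figure D4:**
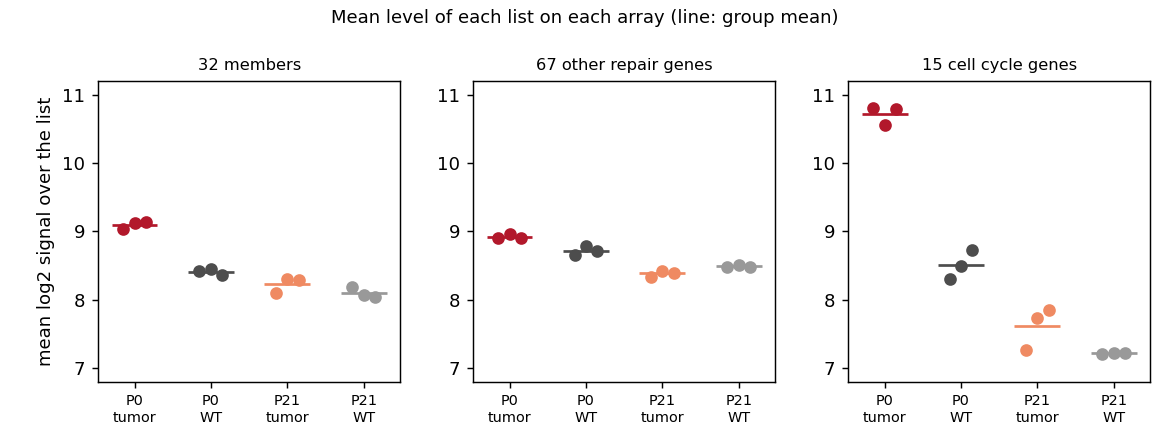
Mean log2 signal of each array over the members, the other repair genes and the cell cycle genes, in the 4 groups. The P0 tumor arrays lie above the P0 wild-type arrays in each panel. The P21 tumor arrays lie below the P21 wild-type arrays for the other repair genes (8.34 to 8.43, against 8.48 to 8.51).

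Markers of other cell types also differed between the groups. At P21, 6 of 9 macrophage genes and 3 of 5 astrocyte genes rose, and 1 astrocyte gene fell. The mean log2 signal per array of the macrophage list was 8.90 to 9.74 in P21 tumors, against 7.99 to 8.06 in P21 wild type, and that of the astrocyte list was 10.1 to 11.5 in P21 tumors, against 8.89 to 9.01 in P21 wild type. Of 6 fibroblast genes, 3 rose and 1 fell at P21, and 2 rose and 1 fell at P0. The fibroblast list mean was 11.4 to 11.9 in P21 tumors, against 10.9 to 11.1 in P21 wild type, and 11.35 to 11.40 in P0 tumors, against 10.89 to 11.12 in P0 wild type. The CP epithelium list had 3 of 8 genes lower at P21 and 2 lower at P0. At P0, 4 of 5 mast cell genes fell and the other 1 rose, with list means of 7.39 to 7.57 in P0 tumors, against 8.34 to 9.63 in P0 wild type, while 2 of 9 macrophage genes rose. At P21, 3 mast cell genes fell and 1 rose. The part of these cell types in the members' differences was not tested. Without P21 tumor replicate 1 the same 3 members rose at P21 and 1, Brca2, fell.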

How the data were processed

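RNA of 12 pooled samples, 3 per group, was extracted with Trizol, cleaned on a PureLink column with DNase I treatment and labelled with biotin, per the labels' protocols. The deposited scanner table holds, per the file headers, an average bead signal, a linear intensity before normalization, and a detection p-value per probe and array. The authors' own normalized intensity values were deposited too, on a linear scale with column medians of about 153, and were used only as an alternative. Their normalization and software are not stated in the sources used here.

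From the deposited scanner intensity, background was corrected with normexp in limma 3.58.1 (R 4.3.3), control levels being inferred from the detection p-values, with an offset of 16, quantile normalization and a log2 transform. Of 45281 probes, 34885 had 1 symbol in the platform annotation, 18 had several and 10378 were not listed. Of the 34885, 34807 took their current symbol by Entrez ID and 11 by accession, and 67 kept the old one. Probes detected at p under 0.05 on at least 3 arrays were kept (24000, of which 20021 had 1 symbol), and the brightest represented its gene. Of the members tested, 14 had 1 such probe and 18 several, and in 0 of them did probes pass in opposite directions.

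One mean per group was fitted over the 12 arrays with limma (lmFit and eBayes, 8 residual and 4.19 prior degrees of freedom), and p-values were adjusted by Benjamini-Hochberg over 12379 genes. The SE of a gene is shared by both ages. The p-values measure the spread between pooled samples, and the number of arrays limits the precision. The calculation was tested on simulated data. The labels number the samples 1 to 3 in each group. At P0 the deviations of same-numbered samples from their group means correlated for numbers 1 and 2 (r = 0.424 and 0.431). For number 3 the value of 0.104 was close to those of some unlike-numbered samples (0.0966 and 0.0871). Pairing at P0 was thus read from the data only, and not for all numbers. At P21 the same-numbered samples did not correlate (r = -0.0815, -0.0277 and -0.138). The reported fit did not pair the samples, and a fit blocked on this number was among the alternatives.

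Named were all 40 members, and from the other lists of repair genes up to 4 genes each, and from the cell cycle and p53 lists up to 3 each, with the largest difference past the threshold at each age. The members and lists were chosen with earlier results of these data known. The rule for printing promoters asked for members that rose at P0 with an E2F-type motif, found none, and was replaced after the values were seen.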

Additional observations from a re-analysis of the deposited data

Results flagged for a closer look

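The tumor effect differed between the ages in 4 members, by limma's test of the difference itself with Benjamini-Hochberg adjustment over all genes. The effect at P21 minus the effect at P0 was -2.06 for Fanca, -2.03 for Ung, -1.86 for Clspn and -1.74 for Chek1 on the log2 scale. The Clspn, Ung and Fanca differences held under each alternative that gave a value (20, 21 and 17 settings), and that of Chek1 was lost in 13 of 20. Fanca and Chek1 were not detected on any P21 array, so their P21 effects set background against background. Fanca was also not detected in P0 wild type and Clspn not in P21 wild type, so of the 4 only the Ung value rests on levels above background in every group. Each group held 3 arrays, too few for a search for single outlying samples.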

How the results depend on the processing

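The 13 members higher at P0 became 7 with probes detected on all 12 arrays, all 7 of them among the 13, and numbered between 10 and 12 in the leave-one-out fits. Of the 13, Rad54l, Chek1, Timeless, Clspn, Rpa2, Fanca, Fancc, Fancd2, Fanci and Ung were called under every alternative that gave them a value. Fanca had no value with probes detected on all 12 arrays or with any P0 tumor array left out. Those settings could not test its call. Mre11a was lost in 8 of 16, Rpa1 in 6 of 16 and Parp1 in 1, the fit of the P0 arrays alone (adjusted p = 0.0735). The 1 member lower at P0 became 0 with probes detected on all 12 arrays and with the replicate block, and 0 to 1 in the leave-one-out fits. The 3 members higher at P21 (1302 of all 12379 genes) became 5 with median scaling (1702 genes), 5 with the P21 arrays alone (1601 genes) and 9 with array weights (2414 genes). The 2 members lower at P21 became 1 with cyclic loess, median scaling, the authors' normalized table, no detection filter or the replicate block, 4 with array weights (2460 genes, against 920), and 1 in each leave-one-out fit. No member with a higher effect at P21 became 1 with array weights (Chek2, with 1282 genes, against 388), and 0 to 1 in the leave-one-out fits, the 1 being Chek2 without P0 wild-type replicate 1. The 4 with a lower effect at P21 became 1 with probes detected on all 12 arrays (82 of 9301 genes), 9 with array weights (759 genes, against 157) and 2 to 6 in the leave-one-out fits. The causes of these moves were not tested. No called difference changed sign. Median scaling moved the median of the difference over all genes to 0.12, against 0.02. Array weights were estimated gene by gene because the default estimate did not converge. At P21 the shared replicate numbers did not pair the samples. A probe near background, as for Fanca, Fanci and Chek1, limits what a fold can show.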
